A study of Saccharomyces cerevisiae and Saccharomyces paradoxus with 173 samples.

Results

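The 6 genes described here, MFA1, MFA2, STE6, STE2, BAR1 and AGA2, are the a-specific genes of budding yeast that were chosen by name and matched to the systematic gene identifiers of the deposited table; all 6 were found among its 6172 genes. The series followed natural yeast strains after release from an arrest with the mating pheromone alpha factor, on spotted oligonucleotide arrays in 2 colours. It holds samples of 10 strains, with 1 culture per strain and up to 18 sampling times from 0 to 345 min. The S. cerevisiae strains were YPS183, YPS2055, YPS2066, YPS2073, YPS2079 and YPS3060 with 18 samples each, YPS2067 and YPS3137 with 16 each, and YPS2060 with 15. YPS3395, with 18 samples, is labelled S. paradoxus. Every culture was grown in synthetic dextrose medium (SD) at 30 °C, held in 4 µM alpha factor for about 75 min, washed free of it, and resumed growth in SD at 18 °C. Each sample was compared with the same reference RNA, from unsynchronised YPS183 cells grown in the rich medium YPD. The labels give no genotype beyond the strain name and no mating type, for the cultures or for the reference.

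A haploid yeast cell is of mating type a or alpha, and each type secretes a peptide pheromone that the other senses. The a-specific genes are kept on in a cells by the DNA-binding protein Mcm1 and off in alpha cells and diploids by the repressor alpha2. Several of them are turned up further when alpha factor binds its receptor and activates the transcription factor Ste12. MFA1 (YDR461W) and MFA2 (YNL145W) encode precursors of a-factor, the pheromone of a cells, and STE6 (YKL209C) the transporter that exports it. STE2 (YFL026W) encodes the receptor for alpha factor, BAR1 (YIL015W) the secreted protease that degrades alpha factor, and AGA2 (YGL032C) the adhesion subunit of the a-agglutinin, which is joined to its cell wall anchor Aga1.

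All values are log2 ratios, taken as sample over reference, so a value of 1 is a 2-fold excess over the reference if the unstated base of the logarithm is 2. The direction is likely and is not stated. Each sample rested on 1 to 5 arrays, the number of which limits the precision, and the deposited table gives 1 combined value per sample. The labels also give the year in which arrays were printed. Prints older than 2007 were in 40 samples, alone in 24 and beside arrays of 2007 or of no stated year in 16. Samples without any older print are called 2007 prints in what follows, whether or not the year of each array is stated. Of the 40, 17 were in YPS2073, 9 in YPS3060, 9 in YPS3137 and 5 in YPS183. In YPS3060 and YPS3137 these were the samples at 0, 48, 87, 135, 176, 218, 251, 284 and 325 min, alternate times that are named set A in what follows, and the remaining times set B.

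The 6 genes were below the reference in most samples. Over the 10 strains together, the ratio was under 0 in 170 samples for BAR1, 167 for STE6, 166 for AGA2, 156 for MFA1, 151 for MFA2 and 136 for STE2. Single values of the 6 genes ran from -4.69, for MFA1 in YPS2066 at 345 min, to 2.44, for MFA2 in YPS3395 at 0 min. A further a-specific gene, AFB1, had a median of -0.21, with every sample within 1 of 0. Against 0 min, AFB1 was not called at 24 min (-0.16, limma adjusted p = 0.23) or at 48 min (-0.18, 0.38). Against the window from 0 to 48 min, it was called lower from 152 to 218 min (-0.14, limma adjusted p = 0.046). It was also called lower from 284 to 345 min (-0.22, 0.0021), but not in the window between 48 and 152 min (-0.12, 0.16). AFB1 had a shared time course (limma adjusted p = 0.036). Of 4 markers of alpha cells only MF(ALPHA)1, an alpha-factor precursor, was measured; its median was 0.07, with every sample but 1 within 1 of 0. Averaged over 9 genes used in haploid cells of either type, the strain means ran from -0.31 to -0.02, against -1.85 to -0.71 for the 6 a-specific genes. The medians of the 9 genes differed, from -0.96 for HO, with strain means from -1.73 to -0.25, to 0.49 for STE4. Ratios to a reference do not show whether a gene was expressed at all, so these markers give no check of the mating type.

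**Figure D1:**
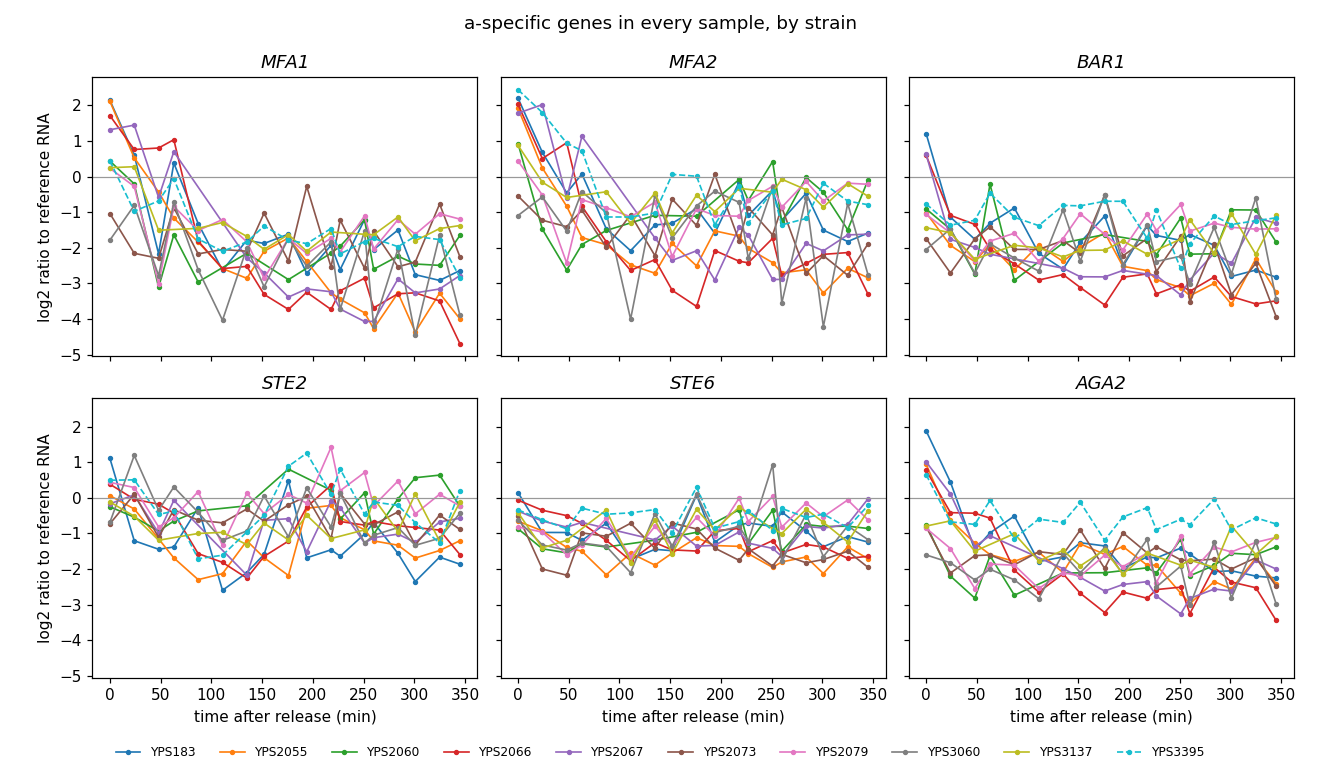
Log2 ratio to the reference RNA (vertical axis) of the 6 a-specific genes in every sample against time after release in min (horizontal axis), with a line for each strain and YPS3395 dashed. The highest values of MFA1, MFA2 and AGA2 lie at or shortly after 0 min, while STE2 comes back towards 0 in the middle of the course in several strains.

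At the moment of release the pheromone genes MFA1 and MFA2 stood highest relative to the reference. MFA1 at 0 min ranged from -1.79 in YPS3060 through a median of 0.44 to 2.14 in YPS183, and was above 0 in 8 of 10 strains. MFA2 ranged from -1.10 in YPS3060 through a median of 1.35 to 2.44 in YPS3395, also above 0 in 8 strains. The strains below 0 in either gene were YPS2073 and YPS3060. STE6, the a-factor exporter, spread least, from -0.87 in YPS2060 through -0.46 to 0.15 in YPS183. The receptor gene STE2 lay on both sides of 0, from -0.73 in YPS2073 through -0.03 to 1.11 in YPS183. BAR1, the alpha-factor protease, was already below the reference in 7 strains, with a lowest value of -2.05 in YPS3060, a median of -0.96 and a highest of 1.21 in YPS183. AGA2 ran from -1.60 in YPS3060 through -0.05 to 1.88 in YPS183. YPS183, the only strain compared with RNA of a strain of its own name, was thus the highest at 0 min in 5 of the 6 genes.

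The print of the arrays moved with these levels at 0 min. In the 7 strains measured on 2007 prints at that time the median was 1.31 for MFA1, 1.92 for MFA2, 0.77 for AGA2, -0.77 for BAR1, 0.38 for STE2 and -0.37 for STE6. In YPS2073, YPS3060 and YPS3137 the deposited 0 min value combines older prints with other arrays (2 older of 3 arrays, 2 of 4 and 2 of 4). There the median was -1.04, -0.55, -0.81, -1.74, -0.69 and -0.50 in the same order. For BAR1 the 3 strains lay entirely below the 7, whose lowest value was -1.06 against a highest of -1.44. For each of the other genes the values of the 3 strains overlapped those of the 7. The share of all genes with such a gap was not counted. Strain and the presence of older prints cannot be told apart here, since the deposited table gives 1 combined value per sample.

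The comparison of 24 with 0 min asked how quickly the a-specific genes changed once alpha factor was removed. AGA2, STE6 and MFA2 fell, 3 of the 6, against 1.72% of all genes called lower. AGA2 went from a mean of 0.04 to -0.94, a change of -0.98 ± 0.16 (SE, n = 10 strains, limma adjusted p = 0.0083) that was downward in 9 strains. STE6 fell in 10 of 10 strains, by 0.61 ± 0.13 (limma adjusted p = 0.021), from the smallest step of -0.15 in YPS2079 to -1.50 in YPS2073. MFA2 fell by 0.97 ± 0.24 (limma adjusted p = 0.045), downward in 8 strains, with YPS2067 at 0.24 and YPS3060 at 0.52. AGA2 kept its call under every alternative run; those of STE6 and MFA2 ended under several. On 2007 prints alone STE6 changed by -0.42 (limma adjusted p = 0.080), and with both dyes alone MFA2 changed by -0.91 (limma adjusted p = 0.085). In the RNA of a whole culture, fewer cells that express a gene and less of its RNA per cell cannot be told apart.

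The other 3 genes did not pass at 24 min. BAR1 changed by -0.96 ± 0.26 (limma adjusted p = 0.057), with values from -2.39 in YPS2067 to 0.58 in YPS3060 and 9 strains downward. MFA1 changed by -0.66 ± 0.23 (limma adjusted p = 0.125), from -1.59 in YPS2055 to 0.98 in YPS3060, with 7 strains downward. STE2 had the widest spread around the smallest mean, -0.10 ± 0.29 (limma adjusted p = 0.89), from -2.31 in YPS183 to 1.88 in YPS3060. In YPS3060, upward in 4 of the 6 genes, 2 of the 4 arrays of the 0 min sample are older prints and none of the 24 min sample. On 2007 prints alone, which leaves 7 strains, MFA1 changed by -0.93 (limma adjusted p = 0.034), BAR1 by -1.29 (0.026) and STE2 by -0.47 (0.40).

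By 48 min all 6 genes had fallen, where 2.04% of all genes were called lower. The comparison shares its 0 min samples with the previous one, so the values below stand beside those at 24 min and do not add to them. In YPS183, which fell most in MFA1, BAR1, STE2 and AGA2, the 0 min sample is on 2007 prints and the 48 min sample on older prints alone. On 2007 prints alone, which leaves out YPS183 too, all 6 genes kept their calls, with changes of -2.21 for MFA1, -2.36 for MFA2, -0.60 for STE6, -0.92 for STE2, -1.59 for BAR1 and -1.83 for AGA2. The median change of the 6 genes was -1.53, against -0.01 over all genes.

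The a-factor genes fell furthest. MFA1 at 48 min ranged from -3.11 in YPS2060 through a median of -1.84 to 0.80 in YPS2066, where 9 of 10 strains were below 0. It fell by 2.16 ± 0.32 (limma adjusted p = 0.0053), in every strain, between -4.31 in YPS183 and -0.91 in YPS2066. MFA2 at 48 min ranged from -2.63 in YPS2060 through -0.72 to 0.95 in YPS2066. Its fall was 1.96 ± 0.28 (limma adjusted p = 0.0043), in every strain, between -3.55 in YPS2060 and -0.44 in YPS3060. At this time YPS2066 was the only strain with both pheromone genes above the reference; MFA2 was also above it in YPS3395. STE6 was lower in every strain too, by a smaller and more even amount, -0.80 ± 0.11 (limma adjusted p = 0.0040), between -1.67 in YPS2073 and -0.43 in YPS2066.

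The genes for sensing and adhesion fell as well. AGA2 at 48 min was below 0 in all 10 strains, from -2.82 in YPS2060 through -1.48 to -0.43 in YPS2066. It fell by 1.65 ± 0.23 (limma adjusted p = 0.0043), in every strain. BAR1 at 48 min lay between -2.74 in YPS2060 and -1.23 in YPS3395, around a median of -2.16. Its change was -1.41 ± 0.26 (limma adjusted p = 0.014), and it ranged from -2.97 in YPS183 to -0.01 in YPS2073. STE2 at 48 min was below 0 in all 10 strains, from -1.45 in YPS183 through -0.96 to -0.18 in YPS2066. It fell by 0.92 ± 0.20 (limma adjusted p = 0.030), in 9 strains, with YPS3060 at 0.34. After quantile normalization BAR1 (-1.48, limma adjusted p = 0.13) and STE2 (-1.08, 0.089) no longer passed, and STE2 also missed the threshold in the S. cerevisiae strains alone (-0.91, 0.056) or without any of YPS2055, YPS2060, YPS2067, YPS2079 or YPS3395.

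**Figure D2:**
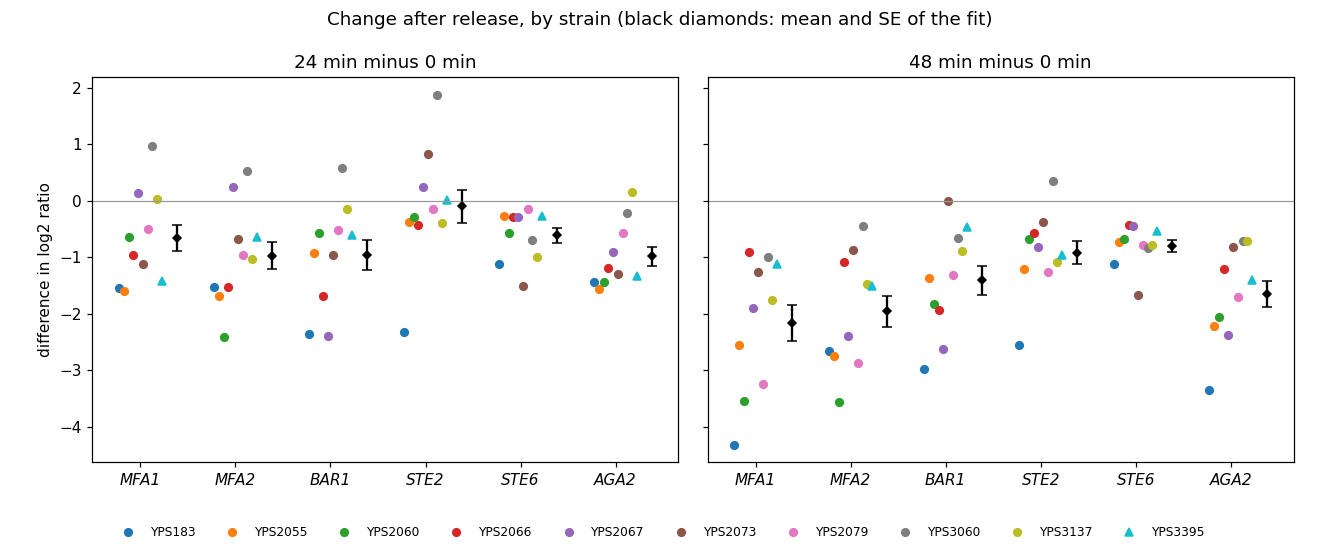
Difference in log2 ratio between 24 and 0 min (left) and between 48 and 0 min (right) for each a-specific gene, with a coloured point per strain, a triangle for YPS3395 and a black diamond with a bar for the mean and standard error of the fit over 10 strains. At 48 min the points of MFA1, MFA2, BAR1, STE6 and AGA2 are all below 0, and only YPS3060 lies above 0 for STE2.

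Genes around the 6 in the mating pathway were counted over lists that were chosen with earlier results of these data known. Of all 6172 genes, 151 were called higher and 106 lower at 24 min. At 48 min 110 were called higher and 126 lower, around a median change of -0.01. None of the 7 genes for processing and export of a-factor other than STE6, among them the farnesyltransferase subunits RAM1 and RAM2 and the protease AXL1, was called at 24 or 48 min, and their median change at 48 min was 0.00. Of 7 regulators, the homeodomain repressor YOX1 was higher at 24 min (0.48 ± 0.12, limma adjusted p = 0.049). DIG1, an inhibitor of Ste12, was lower at 24 min (-0.38 ± 0.08, limma adjusted p = 0.025). TEC1, the partner of Ste12 in filamentous growth, was lower at 48 min (-0.43 ± 0.10, limma adjusted p = 0.039). STE12 and MCM1 were not called in either comparison. Of 13 signalling genes 4 were lower at 48 min and 0 higher: SST2, which speeds GTP hydrolysis by the pheromone G protein, by -1.16 ± 0.17; the cell cycle inhibitor FAR1 by -0.93 ± 0.20; the G protein alpha subunit GPA1 by -0.56 ± 0.11; and the MAP kinase FUS3 by -0.47 ± 0.10. Of 8 genes for agglutination and fusion 6 were lower, led by the agglutinin anchor AGA1 (-2.87 ± 0.31, limma adjusted p = 0.0011), FIG2 (-1.70 ± 0.32), FIG1 (-1.45 ± 0.35) and PRM1 (-1.12 ± 0.18), and the list's median was -0.98. The subunits of the a-agglutinin, AGA1 and AGA2, were thus both lower at 48 min.

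Over the whole course, all 6 genes had a time profile shared by the strains, as did 29.6% of all genes. The difference between the highest and the lowest mean was 3.39 for MFA1 (limma adjusted p = 4.27e-17), 3.08 for MFA2 (3.14e-10), 2.27 for AGA2 (3.17e-10), 1.79 for BAR1 (6.66e-05), 1.57 for STE2 (2.95e-05) and 1.02 for STE6 (0.0029). The median of that range over all genes was 0.36. After the first fall the 6 genes followed different paths. MFA1 went from a fitted mean of 0.58 ± 0.28 (SE) at 0 min to -2.37 ± 0.31 at 111 min and had later means between -2.11 and -2.81, the lowest at 301 min. MFA2 reached its lowest mean, -1.99 ± 0.31, at 111 min and stood at -0.996 ± 0.277 at 218 min. AGA2 passed -1.98 ± 0.21 at 111 min and was lowest at 260 min, at -2.23 ± 0.19. BAR1 stood at -2.18 ± 0.24 at 111 min and was also lowest at 260 min, at -2.44 ± 0.21. The receptor gene STE2 had its trough of -1.52 ± 0.21 at 111 min and came back to -0.27 ± 0.20 at 194 min. STE6 had its lowest mean, -1.47 ± 0.16, at 111 min and its highest after that, -0.62 ± 0.14, at 176 min.

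The means did not run smoothly between neighbouring times of different sets. MFA1 had a mean of -1.58 at 48 min, -0.29 at 63 min and -1.98 at 87 min, where 63 min is of set B and the others of set A. From 251 min the means of MFA1 at set A times (-2.18, -2.20 and -2.20) lay above those at set B times (-2.78, -2.81 and -2.73). In YPS3060 from 135 min the 6 samples of each set did not overlap for 4 of the 6 genes: the median in set A against set B was -1.79 against -3.81 for MFA1, -1.15 against -2.60 for BAR1, -0.46 against -1.29 for STE6 and -1.32 against -2.66 for AGA2. In YPS3137 STE2 went the other way, with -1.17 in set A and -0.12 in set B. In these strains every set A sample held older prints and no set B sample did. The part of the older prints in the differences was not tested, and the share of all genes without overlap was not counted.

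**Figure D3:**
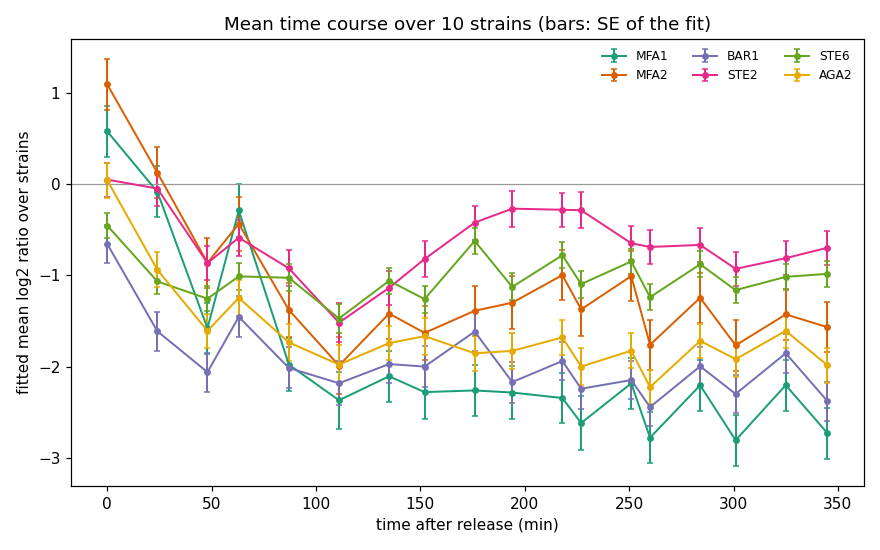
Fitted mean log2 ratio over 10 strains (vertical axis) of each a-specific gene at each time after release in min (horizontal axis), with bars for the standard error of the fit. MFA1 stays low after 111 min, STE2 comes back to -0.27 at 194 min, and MFA1 shows a single high mean at 63 min.

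To average over neighbouring times, each strain's values were taken as means of 4 windows named only by the clock: release (0, 24 and 48 min), S (63, 87 and 111 min), mitotic (152, 176, 194 and 218 min) and late (284, 301, 325 and 345 min). The contrasts with the release window share its samples. From release to S, STE2 fell, by 0.62 ± 0.18 (limma adjusted p = 0.046), 1 of the 6 genes, against 1.52% of all genes called lower; the call was lost without any 1 of 7 strains (YPS183, YPS2055, YPS2066, YPS2079, YPS3060, YPS3137 or YPS3395). MFA2 changed by -1.22 ± 0.37 (limma adjusted p = 0.067) and MFA1 by -1.02 ± 0.38 (0.14). On 2007 prints alone MFA1, MFA2, STE2 and AGA2 passed, with changes of -1.44, -1.52, -0.88 and -1.01. The share of all genes called in that run was not counted.

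From release to the mitotic window 3 of the 6 fell, against 5.9% of all genes. They were MFA1 (-1.94 ± 0.38, limma adjusted p = 0.0014), MFA2 (-1.42 ± 0.37, 0.014) and AGA2 (-0.92 ± 0.24, 0.014). Without YPS2066, where all 3 fell most, only MFA1 passed. STE2 (-0.13 ± 0.18) and STE6 (0.01 ± 0.14) did not pass in this contrast. From release to the late window 4 of the 6 fell, against 8.57% of all genes. MFA1 fell by 2.13 ± 0.38 (limma adjusted p = 0.00046), in 10 of 10 strains, from -4.78 in YPS2066 to -0.16 in YPS2073. MFA2 fell by 1.62 ± 0.37 (limma adjusted p = 0.0036) and AGA2 by 0.97 ± 0.24 (0.0064), each in 8 strains, with YPS2060 and YPS2079 upward. BAR1 fell by 0.69 ± 0.23 (limma adjusted p = 0.036), in 6 strains, and did not pass without YPS183, YPS2055 or YPS2066, nor after quantile normalization (-0.48, adjusted p = 0.12) or with the shared times alone (-0.69, 0.16). The late values of STE2 (-0.49 ± 0.18, limma adjusted p = 0.054) and STE6 (-0.08 ± 0.14, 0.74) were not called.

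Between later windows no a-specific gene passed. From the mitotic to the late window limma called 0.0% of all genes, 0 of 6172, although 245 were under an unadjusted p of 0.05. From the S to the mitotic window, a contrast added after the data were seen, 5.3% of all genes changed in either direction and 0 of the 6 did. STE2 had a change of 0.49 ± 0.18 (limma adjusted p = 0.092), upward in 9 of 10 strains from 0.04 in YPS3060 to 1.67 in YPS3395, with YPS2067 at -0.63. MFA1 had a change of -0.92 ± 0.38 (limma adjusted p = 0.15), downward in 8 strains. The S window of YPS2067 holds its 63 min sample alone, and without that strain STE2 was at 0.62 and passed.

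Whether the 6 genes moved differently from each other was tested directly, strain by strain, with exact sign-flip permutation tests of the difference between the changes of each pair (two-sided, 30 tests over the contrasts mitotic minus S and late minus release, both chosen after the data were seen). Of these, 15 had an adjusted p under 0.05. The smallest p that 10 strains allow is 0.00195. Between S and mitotic windows the a-factor genes parted: the change of MFA1 minus that of MFA2 was -0.72 ± 0.12 (SE) on the log2 scale, negative in 10 of 10 strains (exact permutation, adjusted p = 0.0117). MFA1 against STE2 gave -1.41 ± 0.36 (exact permutation, adjusted p = 0.0195; 8 of 10 strains). MFA1 against AGA2 gave -0.75 ± 0.23 and against BAR1 -0.88 ± 0.32, negative in 10 of 10 strains each. STE2 against AGA2 gave 0.66 ± 0.23 (exact permutation, adjusted p = 0.0469; 8 of 10 strains). Without YPS2067 the difference between MFA1 and MFA2 was -0.75 and that between MFA1 and STE2 -1.22.

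Between the release and late windows STE6 differed from 4 of the other 5 genes, all but STE2. Its change was above that of AGA2 by 0.89 ± 0.23 and above that of BAR1 by 0.61 ± 0.16, in 10 of 10 strains each (exact permutation, adjusted p = 0.0117 for both). The change of MFA1 minus that of MFA2 was -0.50 ± 0.28 in this contrast, with no call (exact permutation, adjusted p = 0.137).

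**Figure D4:**
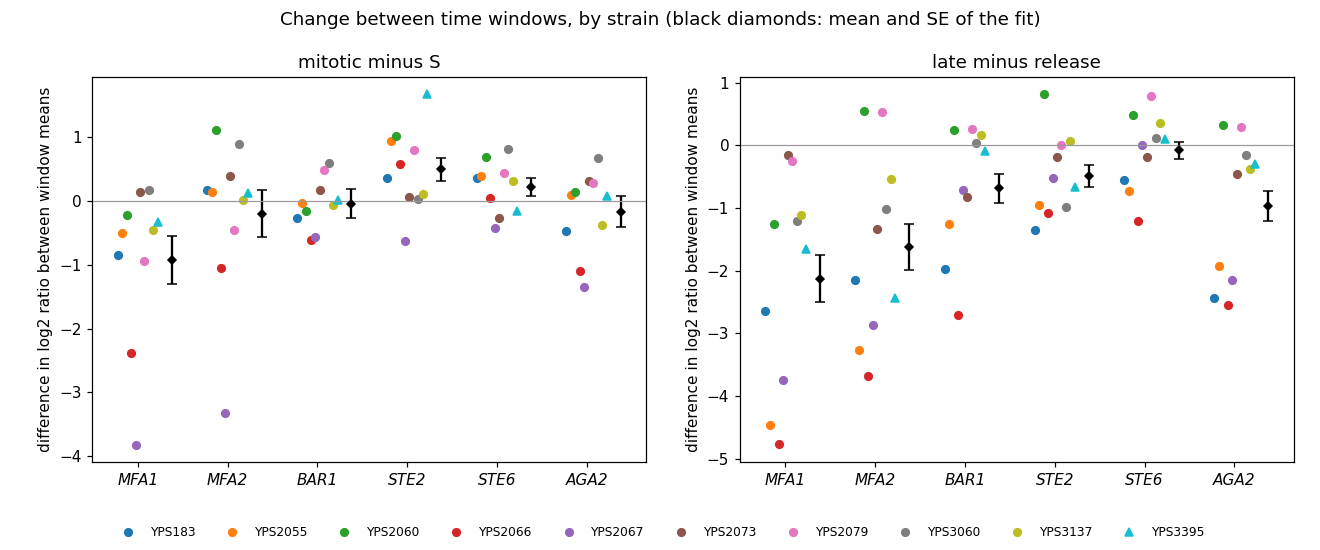
Difference in log2 ratio between window means for each a-specific gene, mitotic minus S (left) and late minus release (right; the vertical scales differ), with a coloured point per strain, a triangle for YPS3395 and a black diamond with a bar for the mean and standard error of the fit over 10 strains. On the left STE2 lies above 0 in 9 strains and MFA1 below 0 in 8; on the right MFA1 lies below 0 in all 10.

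Within single strains, a smooth curve of time was fitted, and a gene was called where it varied with an adjusted p under 0.05 and a fitted range of at least 1. The 6 genes were called in 18 of 60 combinations with a strain: MFA2 in 5 strains, MFA1 and AGA2 in 4, BAR1 in 3, STE2 in 2 and STE6 in 0. YPS2066 had 5 (background 6.84% of all genes), YPS183 4 (3.05%), YPS2067 4 (8.3%), YPS2055 3 (3.45%) and YPS3395 2 (5.12%). The other strains had 0, where 0.146% of genes were called in YPS2060, 0.518% in YPS2079, 1.33% in YPS3060, 1.56% in YPS3137 and 5.9% in YPS2073. With 1 culture per strain, these p-values measure how far time points scatter about the curves, and do not cover differences between cultures. The fitted range of MFA1 was 6.02 in YPS2055, 5.96 in YPS2066, 5.44 in YPS2067 and 4.73 in YPS183, but 0.91 in YPS2073 (limma adjusted p = 1.0). Its other uncalled ranges were 3.30 in YPS2060, 2.79 in YPS2079, 2.72 in YPS3395, 2.44 in YPS3137 and 1.98 in YPS3060. A missing call thus does not show a flat course. YPS3395 was called for MFA2, with a fitted range of 3.71, and for STE2, with 2.63. STE2 was otherwise called in YPS2066 alone, at 2.38 (limma adjusted p = 0.014), which did not pass without the samples that lack both dyes (0.22), and neither STE2 call held after quantile normalization, nor did that of BAR1 in YPS2066 (adjusted p = 0.099).

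The shape of a strain's curve, with its level removed, was then set against the mean curve of the other S. cerevisiae strains. It differed, with a largest deviation of at least 1, in 8 of 60 combinations, against 0.915% of all 61720. Of these 4 were in YPS2066 (background 0.94%), 3 in YPS2067 (1.41%) and 1 in YPS2073 (3.47%). In YPS2066 the pheromone gene MFA1 stayed above the reference to 63 min: it stood at 1.71 at 0 min, 0.76 at 24 min, 0.80 at 48 min and 1.03 at 63 min, and then at -1.81 at 87 min and -3.31 at 152 min. The mean over strains was -1.58 at 48 min and -0.29 at 63 min, when YPS2067 (0.70) and YPS183 (0.38) were also above the reference. The largest deviation of the YPS2066 curve was 2.35 at 48 min (limma adjusted p = 0.0011). AGA2 in YPS2066 stood at 0.77 at 0 min, -0.42 at 24 min, -0.43 at 48 min and -0.57 at 63 min, and then at -2.03 at 87 min. Its largest deviation was 1.43 at 24 min (limma adjusted p = 0.00027), that of MFA2 was 1.89 at 24 min (0.032) and that of BAR1 2.04 at 0 min (0.046). The YPS2066 samples at 24 and 63 min rest on 1 array each, in 1 dye orientation. Fitted without the 8 samples that lack both dyes, AGA2 (1.55, limma adjusted p = 0.0072) and MFA2 (2.36, 0.027) were called in YPS2066 and MFA1 (2.27, 0.071) and BAR1 (2.17, 0.22) were not.

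In YPS2067 the deviations were 1.67 for MFA1 and 1.65 for MFA2, both at 63 min (limma adjusted p = 0.027 and 0.020), and 1.46 for AGA2 at 0 min (0.015). This strain has no sample at 87 or 111 min. In YPS2073 the curve of MFA1 was lower at 0 min by 2.38, a deviation of -2.38 (limma adjusted p = 0.015). Its MFA1 values ran from -2.57 to -0.28 with the highest at 194 min, and 17 of its 18 samples hold older prints. After quantile normalization none of the 4 shape calls of YPS2066 remained, with adjusted p from 0.83 to 1.0 in limma. In YPS2067, MFA2 no longer passed (1.70, limma adjusted p = 0.068) and the largest deviation of MFA1 turned to -2.03 (0.027). On 2007 prints alone that of AGA2 in YPS2067 was 0.94, below the size asked for.

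The level of each gene was compared apart from its time course. Over the 12 times shared by all strains, a strain was called where its mean differed from the other S. cerevisiae strains by at least 1 with an adjusted p under 0.05, as in 1.48% of all combinations. The 6 genes had 2 such calls in 60, although 28 passed the adjusted p alone. The share of all genes that passed the adjusted p alone was not counted. By an unadjusted limma p under 0.05, from 1201 genes in YPS2060 to 2846 in YPS3395 differed in level, of 6172. The 2 calls at the size asked for were both in YPS3395 (background 3.81%): AGA2 was higher by 1.21 ± 0.12 (limma adjusted p = 1.06e-14) and MFA2 by 1.02 ± 0.20 (8.62e-06). BAR1 (0.75), STE2 (0.51) and STE6 (0.51) were also higher there by less than the size asked for, with adjusted p from 8.51e-05 to 0.0051 in limma, and MFA1 was at 0.42 (0.088). Set against YPS183 alone, the strain of the reference, AGA2 was higher in YPS3395 by 0.76 and MFA2 by 0.53, which ended both calls. As for the curves and their shapes, the standard errors and p-values of these levels measure the scatter of time points about the curves. With 1 culture per strain, they do not cover differences between cultures.

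The spread between strains was used in a separate test, of YPS3395 against the means of the 9 S. cerevisiae strains. There AGA2 alone of the 6 passed, against 0.94% of all genes called higher in YPS3395. The mean of AGA2 was -0.54 in YPS3395 and -1.70 ± 0.25 (SD, n = 9) in the S. cerevisiae strains, the highest of which was YPS183 at -1.28 and the lowest YPS2066 at -2.02. The difference was 1.16 ± 0.24 (SE, limma adjusted p = 0.041). It kept its size under every alternative, between 1.12 and 1.21, but missed the threshold after quantile normalization (adjusted p = 0.29), on 2007 prints alone (0.22), and without any of YPS2055, YPS2060, YPS2067, YPS2079 or YPS3060. For MFA2 the means were -0.06 and -1.12 ± 0.57 (SD, n = 9), a difference of 1.06 ± 0.54 (SE, limma adjusted p = 0.41). YPS3137 at -0.31 was the nearest S. cerevisiae strain for MFA2. YPS3395 was also highest of the 10 in BAR1 (-1.33) and STE6 (-0.49), within 1 SD of the S. cerevisiae strains from the next strain, YPS2079. A single strain stands for S. paradoxus, so a difference between species and one between strains cannot be told apart.

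Among the S. cerevisiae strains the order of levels depended on the gene. STE2 was highest in YPS2079 (0.16) and YPS2060 (-0.07) and lowest in YPS183 (-1.15). MFA1 was highest in YPS3137 (-1.24) and YPS2079 (-1.38) and lowest in YPS3060 and YPS2055 (both -2.39). BAR1 was lowest in YPS2055 (-2.55) and YPS2066 (-2.54), STE6 in YPS2073 (-1.60) and MFA2 in YPS2055 (-1.83). YPS2055 was thus lowest of the 10 in BAR1 and MFA2, while YPS183 combined the lowest STE2 with the highest AGA2 of the S. cerevisiae strains. No S. cerevisiae strain was called for any of the 6 genes at the size asked for.

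**Figure D5:**
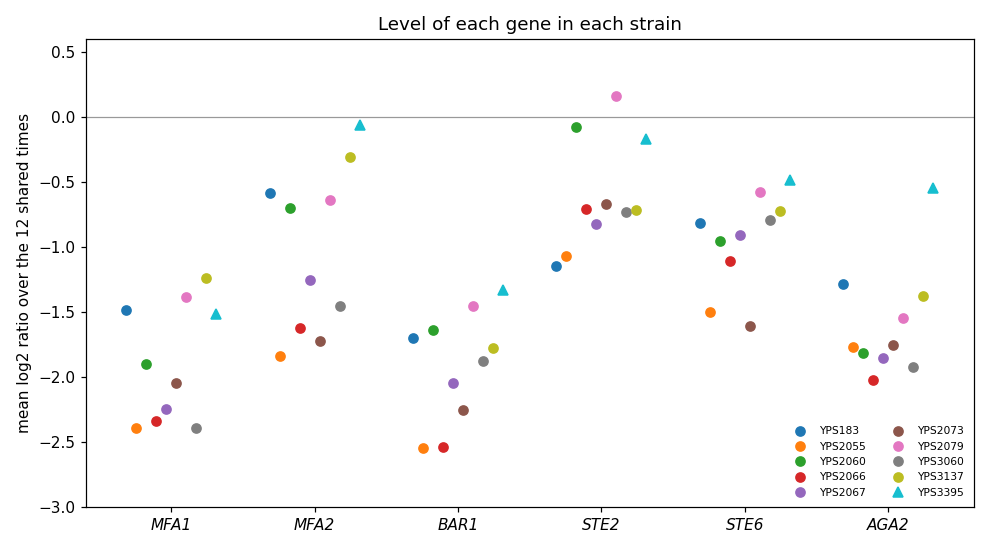
Mean log2 ratio over the 12 shared times (vertical axis) of each a-specific gene in each strain, with a point per strain and a triangle for YPS3395. The triangle stands clear of the other points for AGA2, at -0.54 against -1.28 for the next strain, and among or next to them for the other genes.

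The 6 genes varied together to unequal degrees. With each strain's own mean removed, Pearson's r over all samples was 0.87 for MFA1 with AGA2, 0.86 for MFA1 with MFA2 and 0.81 for MFA2 with AGA2. BAR1 followed AGA2 (0.77) more than it followed the a-factor genes (0.64 and 0.59). STE2 was the least alike, between 0.34 with MFA1 and 0.46 with MFA2, and STE6 lay between 0.41 with STE2 and 0.58 with BAR1. Values of 1 strain share a culture, and all samples share the reference, so these are descriptions. By strain, r of AGA2 with the mean of the other 5 genes ran from 0.48 in YPS3395 to 0.96 in YPS2066, and that of STE6 from 0.07 in YPS3395 to 0.92 in YPS2066.

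Among the other 6166 genes, those most like the mean of the 6 over the same samples were AGA1 (r = 0.76), FAR1 (0.73), the glucan synthase subunit GSC2 (0.72), SST2 (0.69), TMC1 (0.68), PRM5 (0.68), GPA1 (0.66) and IZH1 (0.66). The median r of all other genes was 0.01 and the 99th percentile 0.52. AGA1, the partner of AGA2, had a median of 1.23 at 0 min and -2.19 from 111 min on.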

How the data were processed

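Per the labels' protocols, total RNA of each sample was hybridised against the common reference on 2-colour spotted oligonucleotide arrays with dye swaps. The values used are log ratios, taken as log2, that the authors deposited as 1 column per sample. The base and direction of the ratio, the normalization and the way arrays were combined are not given in the sources used here. Left out were 7 columns of the table whose names fit none of the samples. Sample medians ran from -0.066 to 0.039, and signal over background was not analysed here. Gene symbols came from RefSeq (assembly R64): 5554 identifiers were found there as written, 192 once a missing hyphen was added, and 426 were not found. STE3, SAG1, MF(ALPHA)2 and ASG7 were not analysed here.

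Strain was the group. Apart from the sign-flip tests, tests used limma 3.58.1 in R 4.3.3 over all 6172 genes, two-sided, at 0.05 after Benjamini-Hochberg adjustment; each kind of limma fit was tested on simulated data. Pairs of times and windows were fitted with strain as a block. The shared time course was an F test over times with strain as a block. Curves used strain-specific natural splines of time with 7 degrees of freedom in 1 model of all samples; a size of at least 1 was also required there. Species were compared on strain means. Sign-flip tests used Python 3.11.15, numpy 2.4.6 and pandas 2.3.3, with Benjamini-Hochberg adjustment over 30 tests.

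All 6 genes are named in every comparison, with the 8 other genes most correlated with their mean and up to 4 called genes of each list with the largest change. Further genes named as members of a list were chosen after their values were seen. The members, the gene lists and the tests were chosen with earlier results of these data known. Alternatives were quantile normalization, median centring, 2007 prints alone, samples with both dyes alone, S. cerevisiae strains alone, shared times alone, splines with 5 degrees of freedom, a term for alternate sampling times, YPS183 as the comparator, and leaving out each strain. Leaving out YPS2073, YPS3060 and YPS3137 together, fitting curves to samples with both dyes alone, and the contrast of mitotic with S windows were added after seeing the data.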

Additional observations from a re-analysis of the deposited data

Results flagged for a closer look

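In 10 results of the a-specific genes a strain was flagged as apart from the others. The gap to the nearest strain was large for the range of all 10 in 2 of 54 sets of strain values tested. Chance gives about 1 in 20, so this count was no higher than chance alone would give. MFA2 had a change of -3.32 between the S and mitotic windows in YPS2067, whose S window is 1 sample. AGA2 had a mean of -0.54 over the shared times in YPS3395, above all others.

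The curve of 1 strain differed from that of the other S. cerevisiae strains in 8 cases, by limma's test of the difference. The largest deviations were 2.35 for MFA1, 1.43 for AGA2, 2.04 for BAR1 and 1.89 for MFA2 in YPS2066. They were 1.67 for MFA1, 1.46 for AGA2 and 1.65 for MFA2 in YPS2067, and -2.38 for MFA1 in YPS2073.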

How the results depend on the processing

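Of 991 values of the 6 genes under alternatives, 890 kept direction and side of the threshold, 64 lost the call, 16 gained one and 21 changed sign. Median centring changed no call. Shares of all genes called were counted in the main fits alone, so the counts below have no background beside them. Selections of samples or strains fitted fewer samples; the cause of other shifts was not tested. Of the 6 genes, the 3 called at 24 min became 1 after quantile normalization and between 1 and 4 without 1 strain (1 without YPS2060 or YPS3137). From release to S, 1 became 4 on 2007 prints, 0 in S. cerevisiae alone, 0 without YPS2073, YPS3060 and YPS3137, and 0 to 2 without 1 strain (2 without YPS2067). From release to mitotic, 3 became 1 to 3 without 1 strain (1 without YPS2066), and from S to mitotic 0 became 0 to 1 (STE2, without YPS2067). The 2 level calls became 6 after quantile normalization, 1 with 5 degrees of freedom, 1 with both dyes alone and 6 of 54 against YPS183. The 8 shape calls became 13 of 42 on 2007 prints and 15 with a term for the sampling set. The species call became 0 after quantile normalization and on 2007 prints, and 0 to 1 without 1 strain.

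Apart from 1 shape value, the sign changes were in values not called. STE6 from release to mitotic was -0.12 on 2007 prints, -0.13 without the 3 strains and -0.061 to 0.107 without 1 strain. STE6 from release to late was 0.033 after quantile normalization and -0.18 to 0.04 without 1 strain. STE2 at 24 min was -0.32 to 0.15, and from S to mitotic BAR1 was -0.115 to 0.019 and MFA2 -0.34 to 0.15. From mitotic to late AGA2 was 0.052 on 2007 prints, 0.009 without the 3 strains and -0.112 to 0.024 without 1; STE6 was 0.06 on 2007 prints and MFA2 0.028 without the 3 strains. The largest deviation of MFA1 in YPS2067 was -2.03 after quantile normalization. Strain was a block in the comparisons of times, which pairs the samples of a culture; replicate numbers were given in accession order and pair nothing.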
